A study of Rattus norvegicus with 6 samples.

Results

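The genes described here encode caspases, the PIDD1 scaffold, the apoptosome and their inhibitor, in rat NRK-52E cells exposed to streptozotocin (STZ). The 8 genes were Pidd1, Cradd, Casp2, Apaf1, Casp9, Xiap, Casp8 and Casp6, found by symbol among the 18930 rows of the deposited count table. NRK-52E is an epithelial cell line from rat kidney, labelled as wild type. STZ is a glucose analog that alkylates DNA. In the STZ group (n = 3) the cells were kept with STZ at 10 mM, and RNA was taken after 24 h, while the Control group (n = 3) was labelled only as Control, which the study describes in one place as vehicle and in another as untreated. The comparison addressed how transcripts of the cytotoxic response differed between STZ and Control.

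Messenger RNA was sequenced, and each value is the number of reads assigned to a gene. The total of assigned reads was 10430924, 10902792 and 12737131 in Control replicates 1 to 3, and 13921413, 11658253 and 15191349 in STZ replicates 1 to 3. Levels are given as counts-per-million values (CPM), scaled between libraries, and 1 read corresponded to 0.0667 to 0.0943 CPM depending on the library. Whether the replicates were separate cultures was not stated, so the p-values measure only the spread between these samples. In bulk RNA of this kind, fewer cells of a type and less RNA per cell cannot be told apart. The counts measure neither protein nor cleavage of a caspase, and they do not separate isoforms.

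Caspases are proteases made as inactive precursors. Initiator caspases are activated when adaptor proteins bring them together: Casp9 on the apoptosome built by Apaf1 after cytochrome c leaves mitochondria, Casp2 on the PIDDosome built by Pidd1 and Cradd, and Casp8 on complexes formed at death receptors. Initiators then cleave effector caspases, which Xiap holds in check, and tubular epithelial cells of the kidney can die through these routes after toxic injury.

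The cell type label was first compared with marker genes. Krt8, an epithelial keratin, had 1102 to 1178 CPM in Control and 1597 to 1613 CPM in STZ. Krt18, its usual partner, had 0 to 3 reads in any library on the row of that name, and Cdh1, the epithelial cadherin, was between 1.07 and 3.02 CPM. Krt8 was called higher, and Cdh1 lower (log2 fold change -0.69) though not with DESeq2. Of 6 proximal tubule markers, Lrp2, Cubn, Slc34a1, Slc5a2 and Havcr1 had at most 10 reads in any library, and only Aqp1, a water channel, was tested. Aqp1 was 15.2, 15.2 and 8.81 CPM in Control and 5.89, 5.73 and 4.67 CPM in STZ (log2 fold change -1.25, SE 0.16). Some rows of the table carry only an Ensembl identifier and were not matched to genes here, so a low value on a named row, that of Krt18 included, may miss reads. On the named rows, Krt8 was abundant, and those 5 proximal tubule markers were near 0 in both groups.

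Markers of other cell types were read in the same way. Summed over 5 fibroblast genes, the level was 1993, 2103 and 2215 CPM in Control and 1918, 1917 and 1951 CPM in STZ. Vim, which cultured epithelial cells also express, was the most abundant, Col1a2 had at most 2 reads, and 4 of 4 tested were lower, where 25.1% of all genes tested were. The 3 endothelial genes summed to 0.156 to 0.189 CPM in Control and 0.436 to 0.782 CPM in STZ, with Kdr the most abundant and Cdh5 at 0 in every Control library. Kdr had 0, 2 and 1 reads in Control and 6, 9 and 7 in STZ, whereas Pecam1 had 2, 0 and 1 in Control and 0 in every STZ library. Of the leukocyte genes, Ptprc had at most 1 read in a library, and Cd68, the most abundant, was not called. The part of the moving markers in the results for the 8 genes was not tested.

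Of the 8 genes, 6 had enough reads to be tested, among 11870 tested in all. A gene was called when the quasi-likelihood test of edgeR, adjusted after Benjamini and Hochberg across every tested gene, gave a p under 0.05. Pidd1 was higher in STZ, Apaf1, Xiap and Cradd were lower, and Casp8 and Casp9 did not pass the test. Thus 4 of 6 were called, where 50.9% of all tested genes were, so that the share called is near the background. In single directions, 1 of 6 was higher against 25.9% of all tested genes, and 3 of 6 were lower against 25.1%. None of the 6 also exceeded an absolute log2 fold change of 1, a combination reached by 3.37% of tested genes. This count of 0 was also 0 with unadjusted p-values and 0 with DESeq2 and limma. The groups did not overlap for 4 of the 6, against 56.3% of tested genes. The median log2 fold change was -0.16 over the 6 genes and -0.01 over all tested genes.

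**Figure D1:**
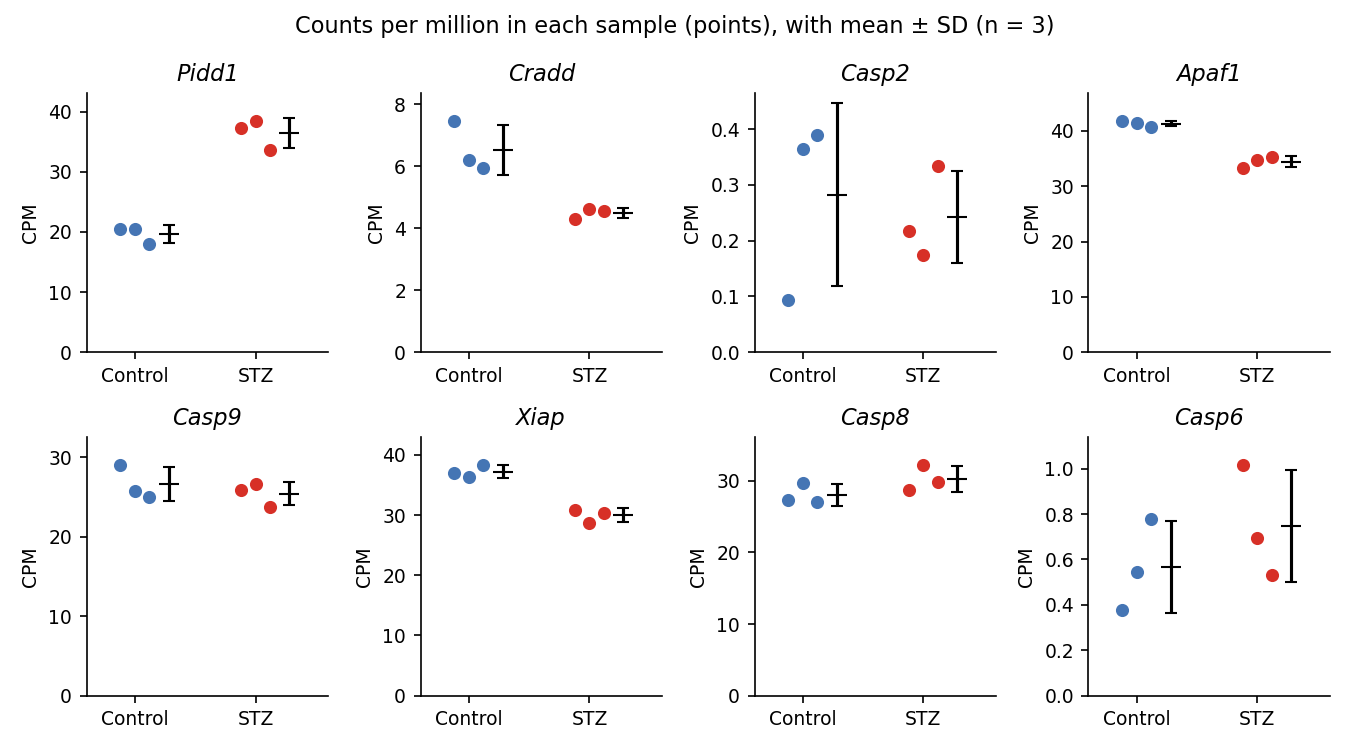
Levels in CPM (vertical axis from 0, with its own range for each gene) of the 8 genes in 3 Control and 3 STZ samples; points are samples, and bars show the mean ± SD. Pidd1 is higher in every STZ sample than in any Control sample, Cradd, Apaf1 and Xiap are lower, and the groups overlap for Casp9, Casp8, Casp2 and Casp6.

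Pidd1 encodes the death domain scaffold of the PIDDosome and is named for its induction by p53. Its level was 20.6, 20.5 and 17.9 CPM in Control replicates 1 to 3 and 37.2, 38.4 and 33.6 CPM in STZ replicates 1 to 3, from 218 to 230 and 442 to 512 reads. The lowest STZ sample, replicate 3, lay well above the highest Control sample, and the groups did not overlap. The mean rose from 19.6 ± 1.48 to 36.4 ± 2.52 CPM (SD, n = 3 each), a fold change of 1.85 with a 95% interval of 1.66 to 2.07. On the log2 scale this was 0.89 (SE 0.08, adjusted p = 9.4e-13, edgeR quasi-likelihood test). Among all tested genes the log2 fold change of Pidd1 stood at percentile 97.0, while its 95% interval of 0.73 to 1.05 included the threshold of 1.

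As the gene with the largest difference of the 8, Pidd1 was also examined at its start site. RefSeq promoter windows of the GRCr8 build, 250 bases before to 50 bases after an annotated start, were matched by symbol for 6 of the 8 genes, and Casp8 and Xiap had no entry. The Pidd1 window lies on the minus strand at chr1:205971551-205971850, and the RefSeq span of the gene extends further upstream than this start. The windows were searched on both strands for the p53 half-site consensus, which reads the same on either strand. Of 33465 windows, 2671 (7.98%) held a match, and Pidd1 was the only one of the 6 that did. Its match begins 25 bases into the transcribed side, counting the start as 1, and is shown in capitals within 30 bases on the minus strand (chr1:205971553-205971582), 5′ to 3′.
Pidd1 half-site: ctaggcAGGCTTGCTTgacaagctaggaca
A match describes these letters and is no evidence of binding, and a window without one says nothing of the factor. Among 6 known p53 target genes taken as a comparison, 4 had a window, and those of Cdkn1a and Ccng1 held a match.

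The windows also differed in base composition. To show this, the 100 bases before the start are given for Pidd1 (minus strand, chr1:205971601-205971700) and for Apaf1 (minus strand, chr7:27466773-27466872), called in opposite directions, with each CpG in capitals.
Pidd1: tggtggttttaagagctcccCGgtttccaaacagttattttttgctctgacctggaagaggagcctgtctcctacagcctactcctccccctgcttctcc
Apaf1: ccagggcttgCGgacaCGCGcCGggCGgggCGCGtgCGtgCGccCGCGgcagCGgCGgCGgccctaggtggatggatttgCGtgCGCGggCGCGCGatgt
The full Apaf1 window of 300 bases held 43 CpG dinucleotides, an observed to expected ratio of 1.09, at percentile 97.8 of all windows. The Pidd1 window held 3, a ratio of 0.130 at percentile 16.4. Between these, Casp2 had 27, Casp9 24, Casp6 16 and Cradd 6.

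Cradd encodes the adaptor, also called RAIDD, that joins Pidd1 to Casp2 through its death domain and its caspase recruitment domain. It was measured at 7.45, 6.18 and 5.93 CPM in Control and 4.29, 4.60 and 4.54 CPM in STZ, from 53 to 79 reads a library. The STZ samples lay close together and below the Control samples, of which replicate 1 was the highest. The mean fell from 6.52 ± 0.814 to 4.48 ± 0.166 CPM (SD, n = 3 each), a log2 fold change of -0.54 (SE 0.16, 95% interval -0.86 to -0.21, adjusted p = 0.00512, edgeR quasi-likelihood test). This placed Cradd at percentile 5.53 of all tested genes. The RefSeq span of Cradd overlaps other genes without a name, and because the strand setting of the counting was not stated, reads of overlapping genes may not have been separated.

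Casp2, the initiator recruited by Pidd1 and Cradd, was hardly counted. It had 1, 4 and 5 reads in Control and 3, 2 and 5 reads in STZ, and was not tested. Summed over each group there were 10 and 10 reads, for a depth-adjusted STZ to Control ratio of 0.855 with an exact 95% interval of 0.319 to 2.29, which covers counting error only. No difference within that interval was detectable at this depth. The ratio covers only the row named Casp2. As for Krt18, few reads on a named row do not show that the RNA was absent, since rows with only an Ensembl identifier were not matched to genes here and may hold further reads.

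Pidd1 and Cradd can also be set against each other inside each sample, which removes the scaling between libraries. Gene lengths were not taken into account, so only the change in a ratio can be read, and the pairs were chosen after the values were seen and are described without a test. Reads of Pidd1 per read of Cradd were 2.76, 3.31 and 3.03 in Control and 8.68, 8.34 and 7.40 in STZ. The groups were far apart, with the geometric mean ratio 2.69 times as high in STZ.

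**Figure D2:**
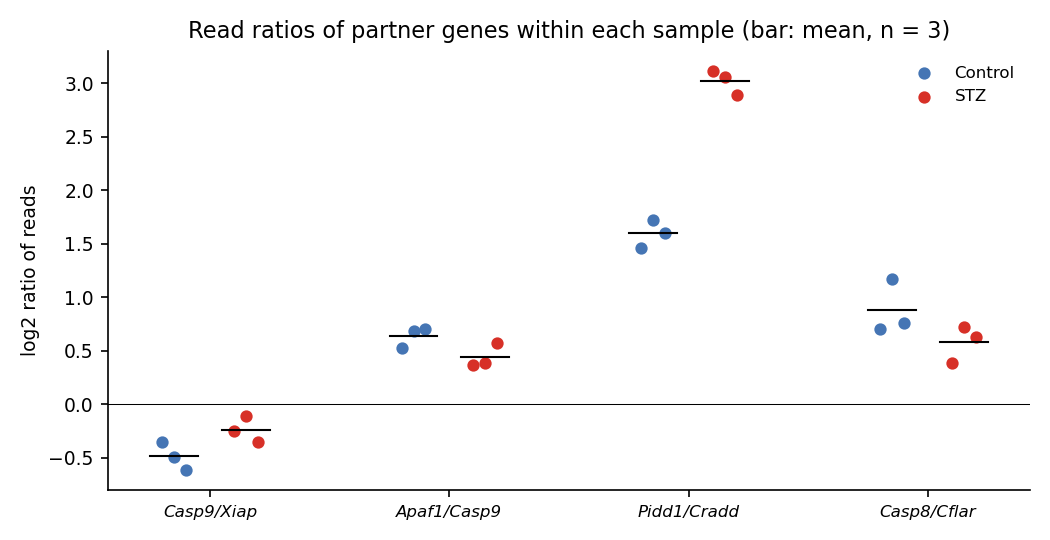
Log2 ratio of the reads of 2 genes within a sample (vertical axis) for 4 gene pairs (horizontal axis); points are the 3 Control and 3 STZ samples, and bars are group means. Pidd1 per Cradd shows the widest separation, and the other pairs overlap between groups; the height of a pair reflects gene length as well as level.

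Pidd1 is held at the distal appendages of the mother centriole, where Ankrd26 anchors it and where the PIDDosome responds to extra centrosomes. Of 6 genes of this structure, 4 were lower, 1 was higher and Cep89 did not pass the test, where 25.1% of all tested genes were lower and 25.9% higher. Ankrd26 was 27.4, 27.2 and 25.8 CPM in Control and 14.97, 18.7 and 16.7 CPM in STZ. All STZ samples were below all Control samples (log2 fold change -0.68, SE 0.09, adjusted p = 1.1e-08, edgeR quasi-likelihood test). Sclt1 (-0.40) and Fbf1 (-0.31) were also lower, as was Cep83 (-0.43), whose call was lost without Control replicate 2 (-0.28, adjusted p = 0.0788 in edgeR). Cep164, a further appendage protein, was higher with a log2 fold change of 0.29. The median of the 6 was -0.35, beside -0.01 for all tested genes.

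Apaf1 encodes the protein that binds released cytochrome c and assembles the apoptosome. Its level was 41.8, 41.4 and 40.8 CPM in Control and 33.4, 34.8 and 35.2 CPM in STZ. Each group spanned a narrow range, and the highest STZ sample stayed below the lowest Control sample. The mean fell from 41.3 ± 0.493 to 34.5 ± 0.984 CPM (SD, n = 3 each, log2 fold change -0.26, SE 0.06, 95% interval -0.39 to -0.13, adjusted p = 0.000753, edgeR quasi-likelihood test). Although clear of the replicate spread, this difference stood at percentile 18.9 of all tested genes.

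Casp9 encodes the initiator that the apoptosome activates. It was 29.0, 25.7 and 25.0 CPM in Control and 25.9, 26.6 and 23.8 CPM in STZ, or 26.6 ± 2.14 and 25.4 ± 1.47 (SD, n = 3 each). The groups overlapped, with Control replicate 1 the highest of all samples. The log2 fold change was -0.07 (95% interval -0.23 to 0.09, adjusted p = 0.504, edgeR quasi-likelihood test). In RefSeq the span of Casp9 overlaps Cela2a, which had 4 to 7 reads a library against 283 to 356 for Casp9. The ratio of Apaf1 to Casp9 reads overlapped between the groups as well, and was 0.873 times the Control value in STZ.

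Among genes whose products leave mitochondria, 5 were tested and 1 was higher, against 25.9% of all tested genes: Htra2, a protease that binds inhibitors of apoptosis, at 0.18 (adjusted p = 0.0219 in edgeR). That call was lost without Control replicate 2 (adjusted p = 0.211) or STZ replicate 3 (0.221), with library size scaling (0.0630) and in DESeq2 (0.0765). Cycs, the cytochrome c gene, was 39.3, 40.6 and 41.0 CPM in Control and 37.0, 35.2 and 40.5 CPM in STZ, which overlap. Endog, a nuclease, had a log2 fold change of 0.24 and Diablo, an antagonist of Xiap, one of -0.23, and neither passed the test; with single libraries left out they ranged from 0.14 to 0.38 and from -0.33 to -0.10. Aifm1, a mitochondrial flavoprotein, was 89.1, 90.4 and 90.4 CPM in Control and 81.3, 82.8 and 88.3 CPM in STZ, without overlap, and did not pass the test (log2 fold change -0.10, adjusted p = 0.101 in edgeR). It was called lower without STZ replicate 3 (adjusted p = 0.0427) and with library size (0.0247) or upper quartile (0.0460) scaling.

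Of 5 modulators of apoptosome assembly, 3 were lower and the remainder, Apip and Cse1l, did not pass the test, where 25.1% of all tested genes were lower. Both were called lower without Control replicate 1 (adjusted p = 0.0356 for Apip and 0.0468 for Cse1l in edgeR) and with library size scaling (0.0422 and 0.0449), which brings the count to 5 of 5. Ptma, prothymosin alpha, which restrains the apoptosome, was 659, 725 and 734 CPM in Control and 443, 439 and 447 CPM in STZ (log2 fold change -0.67, SE 0.04, adjusted p = 6.1e-19, edgeR quasi-likelihood test). The table has another row of the same name with fewer reads, and Ptma has many pseudogenes, so the split of its reads is uncertain. Aven, which binds Apaf1 and opposes its assembly, was at -0.48, and Anp32a, which promotes assembly, was at -0.38. The lower genes thus included ones with opposite effects on the apoptosome.

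Xiap encodes the inhibitor that binds Casp9 and the effector caspases. Its level was 37.0, 36.3 and 38.4 CPM in Control and 30.8, 28.7 and 30.4 CPM in STZ. All STZ samples were lower than all Control samples. The mean fell from 37.2 ± 1.06 to 29.97 ± 1.14 CPM (SD, n = 3 each, log2 fold change -0.31, SE 0.07, 95% interval -0.45 to -0.17, adjusted p = 0.000178, edgeR quasi-likelihood test). Xiap stood at percentile 15.1 of all tested genes. Reads of Casp9 per read of Xiap were 0.786, 0.709 and 0.652 in Control and 0.840, 0.927 and 0.781 in STZ, where the lowest STZ sample lay just below the highest Control sample.

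The list of other inhibitors of apoptosis held 7 genes, among them Xaf1, an antagonist of Xiap. Naip6 was not in the table and Birc7, with 0 to 3 reads a library, was too low to test. Of the 5 tested, 2 were higher and 1 was lower, where 25.9% and 25.1% of all tested genes were. Birc5 and Xaf1 did not pass the test. A list of 5 genes is too short for a close comparison of these shares. Birc2, a ubiquitin ligase that keeps Ripk1 in check, was 39.3, 41.6 and 41.1 CPM in Control and 48.6, 47.9 and 47.7 CPM in STZ (log2 fold change 0.24, SE 0.06, adjusted p = 0.000917, edgeR quasi-likelihood test). Birc3, its paralog, was 1.04, 2.27 and 1.87 CPM in Control and 2.76, 2.52 and 2.94 CPM in STZ (log2 fold change 0.66). Its call was lost in edgeR without Control replicate 1 (0.42, adjusted p = 0.206), STZ replicate 1 (adjusted p = 0.0642) or STZ replicate 3 (adjusted p = 0.102). It was also lost in DESeq2 (adjusted p = 0.107) and, in edgeR, with libraries thinned to the smallest total (adjusted p = 0.0740). Birc6, a large cytoplasmic inhibitor, was at -0.12, a call lost without STZ replicate 2 (adjusted p = 0.0843). Birc5, an inhibitor active in mitosis, was called lower without Control replicate 1 (-0.15, adjusted p = 0.0382) and with library size (adjusted p = 0.0256) or upper quartile (adjusted p = 0.0452) scaling, so the directions counted in this list depend on single libraries and on the scaling.

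Casp6, an effector caspase that cleaves lamins, was counted too rarely to be tested, at 4, 6 and 10 reads in Control and 14, 8 and 8 in STZ. Its sums of 20 and 30 reads gave a depth-adjusted ratio of 1.28 with an exact 95% interval of 0.705 to 2.38. The groups overlapped, and neither direction was set apart at this depth. Of 4 further caspases listed, Casp12 (0.65) and Casp4 (0.66), both of the inflammatory family, were called higher, as were 25.9% of all tested genes, and Casp1 and Casp14 were too low to test.

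Casp8 encodes the initiator of death receptor signaling, which also cleaves Ripk1 and Ripk3 and thereby restrains necroptosis. It was 27.2, 29.7 and 27.0 CPM in Control and 28.7, 32.2 and 29.8 CPM in STZ, or 27.99 ± 1.52 and 30.3 ± 1.80 (SD, n = 3 each). Control replicate 2 lay within the STZ range, so the groups overlapped. The log2 fold change was 0.11 (95% interval -0.04 to 0.26, adjusted p = 0.219, edgeR quasi-likelihood test), which did not pass the test.

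Of 6 genes that act with Casp8, 3 were higher, and Fadd, Ripk1 and Tradd did not pass the test. This share called is near the 50.9% of all tested genes, of which 25.9% were higher. Fadd was called lower without Control replicate 1 (-0.18, adjusted p = 0.0449 in edgeR). Mlkl, the executioner of necroptosis, was 19.6, 22.0 and 19.5 CPM in Control and 29.3, 34.1 and 30.1 CPM in STZ (log2 fold change 0.61, SE 0.08, adjusted p = 2.8e-08, edgeR quasi-likelihood test). Ripk3, the kinase upstream of Mlkl, was at 0.44, and Cflar, the Casp8 homolog that regulates its activation, at 0.41. In RefSeq the spans of Casp8 and Cflar overlap, so reads from the shared stretch may not have been separated. Reads of Casp8 per read of Cflar overlapped between groups, at 1.62 to 2.26 in Control and 1.31 to 1.65 in STZ.

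**Figure D3:**
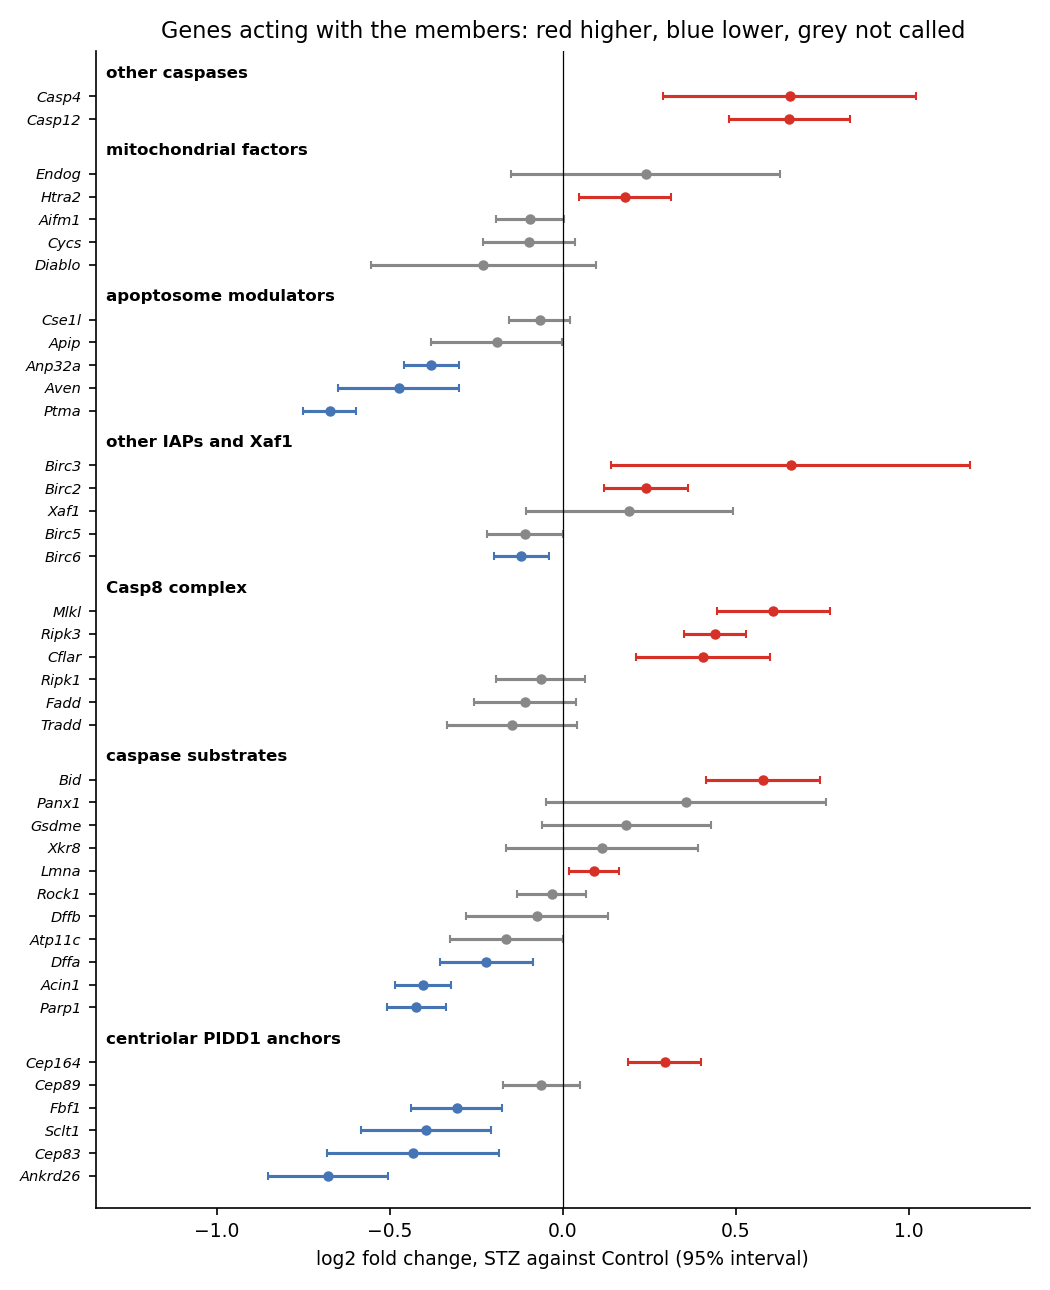
Log2 fold change of STZ against Control (horizontal axis) with its 95% interval for the 40 tested genes that act with the 8 genes, grouped by role; red genes were called higher, blue lower and grey not called. The caspases and Casp8 partners called are all higher, the apoptosome modulators called are all lower, and the centriolar genes called are lower except Cep164.

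Genes whose products caspases cleave, or that carry out the dismantling, numbered 11 among those tested, with 2 higher and 3 lower, near or under the 25.9% and 25.1% of all tested genes. Bid, which Casp8 and Casp2 cleave to link them to mitochondria, was 17.3, 18.8 and 18.6 CPM in Control and 28.4, 27.3 and 26.3 CPM in STZ (log2 fold change 0.58, SE 0.08, adjusted p = 1.0e-07, edgeR quasi-likelihood test). Parp1, a DNA repair enzyme, was at -0.42 and Acin1, a chromatin condensation factor, at -0.40, both called lower. Dffa, the inhibitor of the caspase-activated nuclease, was at -0.22. The smallest called difference was that of Lmna, a lamin, at 0.09, which lost its call without Control replicate 1 (adjusted p = 0.0885), Control replicate 2 (0.112), STZ replicate 1 (0.104) or STZ replicate 2 (0.144), and with library size (0.188) or upper quartile (0.101) scaling.

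Over all 7 role lists, 44 of 45 genes were in the table and 40 were tested, of which 11 were higher, 11 were lower and 18 did not pass the test. These shares lie near those of all tested genes, and the median of -0.07 is close to -0.01. None of the 40 passed both thresholds in edgeR, against 3.37% of all tested genes, which was also so with unadjusted p-values and with DESeq2 and limma (0 each). In a list of 6 known p53 targets, 6 were higher and 5 passed both thresholds, against 25.9% and 3.37% of all tested genes. This list was written with earlier results of these data known, so its count describes these 6 genes and not p53 targets at large. Their log2 fold changes ran from 0.86 for Bax to 2.49 for Cdkn1a. The log2 fold change of Pidd1, 0.89, was thus about as large as the smallest of these.

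**Figure D4:**
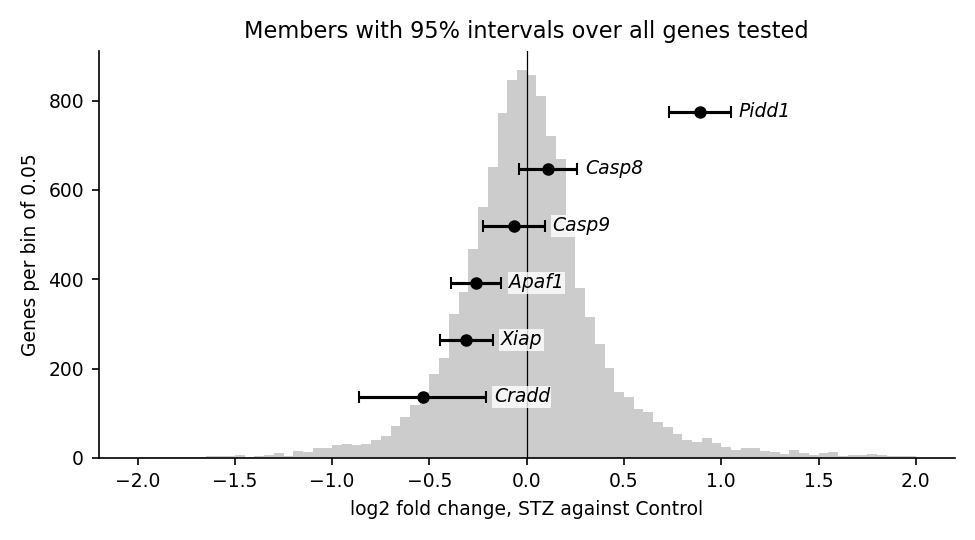
Histogram of log2 fold changes of STZ against Control (horizontal axis) over the 11870 tested genes, in bins of 0.05 (vertical axis, genes per bin); 49 genes beyond 2 in either direction are not drawn. Points are the 6 tested genes with 95% intervals, at arbitrary heights; Pidd1 lies in the right tail, while Casp8, Casp9, Apaf1 and Xiap lie within the main body of the distribution.

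The patterns over the 6 samples were finally compared with those of other tested genes, by the root mean square difference of log2 CPM after centring each gene. Rows with only an identifier or a provisional name, and repeated names, were left out of this comparison. Nearest to Pidd1 were Acot8 (0.0467), a peroxisomal thioesterase, and Kctd11 (0.0584). For Cradd they were Adgrl1 (0.0477) and Samd11 (0.0548), and for Apaf1 Vdac3 (0.0180), a mitochondrial porin, and Pabpn1 (0.0199). Xiap lay nearest to Ttk (0.0161), a mitotic checkpoint kinase, and Smc3 (0.0184), a cohesin subunit. Casp8 was closest to Rfx5 (0.0183) and Apba3 (0.0219), and Casp9 to Abcd4 (0.0126) and Bcat2 (0.0287). The distances for Pidd1 and Cradd were larger than those for the other genes, so their patterns had less close neighbours in these libraries.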

How the data were processed

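RNA of NRK-52E cells was prepared with a stranded mRNA kit and sequenced as single-end reads. The authors mapped the reads to Rnor6 with STAR 2.7.10a, assigned those with a unique position to genes with featureCounts, and deposited the raw counts. The annotation release and strand setting were not stated. Samples were grouped by their labels. The quasi-likelihood test, after TMM scaling and filterByExpr, was run in edgeR 4.0.16 under R 4.3.3 with Benjamini-Hochberg adjustment over all tested genes; the procedure was tested on simulated data. DESeq2 1.42.0 and limma 3.58.1 (voom) served as alternatives, with other scalings, filters, thinning, a replicate block and each sample left out. Ratios for untested genes have exact conditional 95% intervals. Genes were named by rule: the 8 genes, in each list the smallest p, largest rise and largest fall, p53 targets and cell markers, and the 2 nearest patterns per gene; further names were chosen after their values were seen. The genes and lists were chosen with earlier results of these data known, and some genes of the lists are not reported here. Promoter windows are RefSeq, GRCr8, a later build than that of the counts.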

Additional observations from a re-analysis of the deposited data

How the results depend on the processing

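Under 16 alternatives, 681 of 716 refits of single genes kept their direction and side of the threshold, 17 were no longer called, 14 were newly called and 4 changed sign; 76 of 79 recomputed counts stayed within 1.5 times. Over all alternatives the log2 fold change was 0.82 to 0.95 for Pidd1, -0.61 to -0.44 for Cradd (edgeR, DESeq2 or limma adjusted p up to 0.0442), -0.29 to -0.23 for Apaf1 and -0.34 to -0.28 for Xiap, each called in all 15, and Casp8 and Casp9 were called in none of 15. The 3 of these 79 that moved further came from requiring an absolute log2 fold change over 0.5. They were 1 of the 8 genes lower, and 5 role-list genes higher and 2 lower, while 1 of the 8 stayed higher. Other counts, among them those of single lists given above, also moved by over 1.5 times. Over all genes, 249 of 11297 passed both thresholds with a filter of at least 10 counts in every sample, against 400 of 11870. In DESeq2, 0 mitochondrial factors and 1 of the other inhibitors of apoptosis were higher, against 1 and 2 in edgeR. Sign changes occurred for genes not called: thinning libraries to the smallest total gave 0.52 for Casp2, and leaving out single samples gave -0.59 to 0.098 for Casp2, -0.096 to 0.016 for Rock1 and -0.047 to 0.21 for Xkr8; the cause was not tested. Deviations of same-numbered samples from their group means had correlations of 0.0464, -0.0357 and 0.0806 over 11870 genes. All genes weighed alike there, counting noise of low genes included, so these values cannot decide whether same-numbered samples were handled together. The labels do not state it either. The replicate block called 6199 genes against 6046 and gave 0.89 for Pidd1. It changed no call among the 48 single genes refitted, and the p53 targets and cell markers were not refitted with it. Levels per kilobase were planned but not run, as no exon lengths were used here. Casp2 and Casp6 had 1 to 14 reads a library, which limits the precision of their ratios.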
